A study of Mus musculus with 1 sample.

Results

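Lysosomal proteases and hydrolases were examined in glia cultured from the ventral midbrain (VM) of mice. The set held 43 genes of 23282 gene rows, chosen by name as cathepsins and related proteases, glycosidases, sulfatases, lipid hydrolases, acid phosphatases, a nuclease, and the activator and lipid transfer proteins that assist them. Each of the 43 symbols matched 1 row. The material was primary mixed glia from outbred ICR (CD-1) mice at postnatal day 5, sequenced as 1 control library in a study of the kinase SGK1 and its inhibitor GSK650394. The glia were grown in medium with serum and passaged before use. The table heading names DMSO, the vehicle that the study gave its control cultures, and also holds the letters mAst. These letters may stand for mouse astrocytes, but the paper does not explain them. It describes its VM-glial cultures as astrocytes with microglia. Whether this culture also received a toxin, and how many pups were pooled, is not given in the sources used here. The inhibitor-treated glia were not analysed here, so no contrast between groups was made and no value has a replicate error.

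The lysosome is the acidic compartment in which cells take apart proteins, glycans and lipids that arrive by endocytosis, phagocytosis or autophagy. Its soluble enzymes are made in the endoplasmic reticulum, receive a mannose 6-phosphate tag in the Golgi apparatus and are carried to the lysosome by receptors for this tag. Glycans and sphingolipids are degraded stepwise, each enzyme opening the bond for the next, and loss of a single enzyme causes an inherited storage disease in many cases. Microglia, the phagocytes of the brain, are known for abundant lysosomal proteases, while astrocytes and fibroblasts express the general set as well.

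The deposited values were normalised read counts, and the sum over all rows was 27569507. Long transcripts collect more reads, so levels of different genes were compared only per length. The value per kb of annotated exon and per 1000000 of the sum is called the level below. Shares of the sum are taken from values not divided by length, so genes with long transcripts weigh more in them. Detection was set at a value of at least 10. The authors counted on RefSeq genes, and the longest transcript linked to a RefSeq mRNA was used as a second length. With it the level changed by over 1.5 times for 14 of the 43 genes, so the detected ones of these are given on both lengths. The median of detected genes was 3.72 on the first length, over 15498 genes, and 5.81 on the second, over 14458 genes. Genes without a RefSeq-linked mRNA drop out of the second, so the 2 medians also differ in their genes. How many of all genes moved by over 1.5 times was not counted.

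The labelled cell types were checked with markers. All 6 microglia markers were detected, with levels from 15.4 (Tmem119) to 1138 (C1qa) and 0.373% of the sum between them. All 6 astrocyte markers were detected as well, from 7.86 (Slc1a3) to 148 (Gfap), with 0.120% of the sum. All 6 mesenchymal markers were present, from 6.74 (Lum) to 438 (Acta2), with 0.205% of the sum. Of the 6 neuron markers 4 were detected, none above a level of 2.41, and Slc17a6 was listed at 0. Of the 5 endothelial markers 3 were detected, with levels from 0.192 (Pecam1) to 6.52 (Flt1), and Tek was listed at 0. The oligodendrocyte lineage markers were detected in 6 of 6 cases, with Sox10 lowest at 0.571. In a bulk sample, fewer cells of a type and less RNA per cell cannot be told apart, so the values below belong to the mixture, and the part of each cell type in them was not tested.

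Nearly the whole set was detected, and most of it stood in the upper range of the transcriptome. Of the 43 genes 41 were detected, where 67.2% of all rows were. The median level of the 43 genes was 37.1, against 3.72 for the 15498 detected genes with a known length, which is 9.99 times as high. The level of 40 of the 43 was above that of the median detected gene. The highest 10% of detected genes began at a level of 33.0, and 22 of the 43 hydrolase genes lay there, where by construction 9.99% of all genes did. Just inside this limit was Gaa at 37.1, and just outside were Gm2a at 31.1 and Ctsc at 30.6. Over the transcript linked to RefSeq, 22 of the 43 were again in the highest 10% of the detected genes with such a length, and 21 of these were shared.

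**Figure D1:**
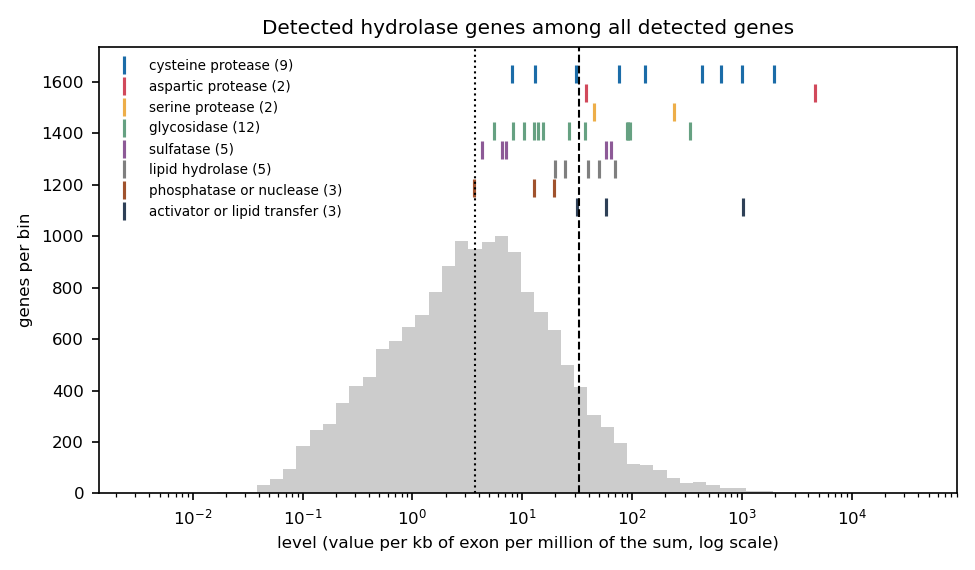
The grey histogram shows the level of every detected gene (x axis, value per kb of exon per 1000000 of the sum, log scale) as genes per bin (y axis), and each coloured tick is 1 of the 41 detected hydrolase genes, 1 row of ticks per class. The dotted line is the median level of detected genes (3.72) and the dashed line the start of the highest 10% (33.0), and the ticks lie to the right of the dotted line except that of Acp5, at 3.63.

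Together the 43 genes held 3.22% of the sum of all values, and a few genes held most of that. Ctsd alone made up 33.9% of the set's sum, the first 3 genes (Ctsd, Ctsb and Psap) 61.1%, the first 5 (with Ctss and Lgmn) 74.0%, and the first 10 (with Ctsa, Ctsl, Man2b1, Hexa and Ctsz) 86.5%. Without Ctsd the other members held 2.13% of the sum. By class, the 11 cysteine proteases accounted for 38.0% of the set's sum and the 2 aspartic proteases for 34.3%. The 3 activator and lipid transfer genes contributed 10.0% and the 12 glycosidases 8.47%. The serine proteases contributed 4.26%, the lipid hydrolases 2.56%, the sulfatases 1.91%, and the phosphatases with the nuclease 0.551%. By value, protease genes therefore made up most of the set.

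**Figure D2:**
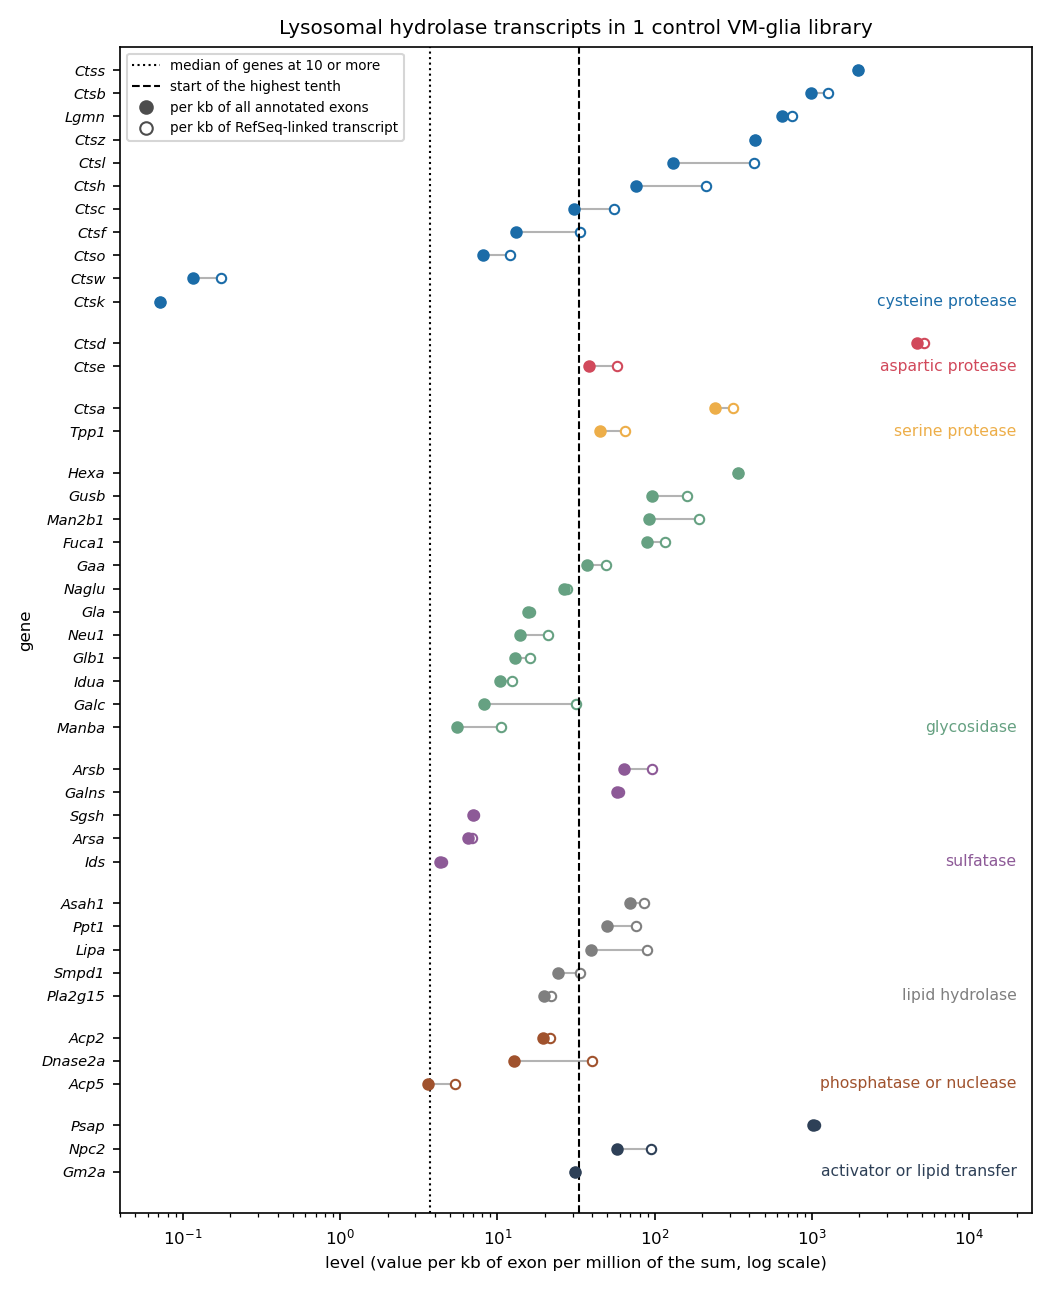
Each row is 1 of the 43 genes, grouped by class, and the x axis gives its level on a log scale, as a filled circle per kb of all annotated exons and an open circle per kb of the transcript linked to RefSeq. The dotted and dashed lines mark the median of detected genes and the start of the highest 10%, and Ctsk and Ctsw stand apart at the left while Ctsd, Ctss, Psap and Ctsb stand at the right.

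The aspartic protease cathepsin D was the highest of all 43. Ctsd (chromosome 7, 142375911 to 142388038 in GRCm38, minus strand) had a level of 4636, which was rank 7 of all genes per length. Cathepsin D is the main endopeptidase of the lysosome and starts the breakdown of most proteins there. Its relative Ctse (chromosome 1), an aspartic protease of immune cells and the stomach, had a value of 3350 and a level of 38.3, so that the Ctsd level was 121 times the Ctse level. A predicted gene on the same strand, Gm49369, covers 34.4% of the annotated Ctsd exons and had no row of its own.

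The cysteine cathepsins spanned the widest range, from among the highest genes of the library to under the detection limit. Ctss (cathepsin S, which trims the invariant chain in antigen-presenting cells) had a value of 73268 and a level of 1957, rank 15 of all genes per length. Ctsb (cathepsin B, an endopeptidase that also removes dipeptides from the carboxyl end) followed with a value of 164610 and a level of 987. The ranking by value and by level therefore differed for this pair, since the annotated exons of Ctsb add up to 6051 bases and those of Ctss to 1358. Legumain (Lgmn, which cuts after asparagine and activates other cathepsins) had a value of 41070 and a level of 641, and the carboxypeptidase Ctsz a value of 17102 and a level of 430.

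Ctsl (cathepsin L, a strong endopeptidase) had a value of 23246 and a level of 130. Its annotated exons include long transcripts, and over the RefSeq-linked length of 1971 bases its level was 428, close to that of Ctsz. Ctss was 15.1 times as high as Ctsl per annotated exon and 4.58 times as high per RefSeq-linked transcript, so the direction was the same on both lengths and the size was not. Ctsh, an aminopeptidase, had a value of 9465 and a level of 76.3, or 212 over the RefSeq-linked length. Ctsc, the dipeptidyl peptidase that activates serine proteases of immune granules, had a value of 4901 and a level of 30.6 (55.2 over the RefSeq-linked length). Ctsf had a value of 1820 and a level of 13.1 (33.3 over the RefSeq-linked length), and Ctso, with a value of 1145 and a level of 8.11, was the lowest detected cysteine cathepsin.

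The cathepsins under the detection limit were Ctsk, with a value of 3, and Ctsw, with a value of 6. Cathepsin K is known as the collagen-cleaving protease of osteoclasts and is also made by fibroblasts, and cathepsin W as a protease of cytotoxic lymphocytes. Ctsk lies next to Ctss on chromosome 3 on the same strand, 17423 bases apart (Ctsk at 95499256 to 95509362, Ctss at 95526786 to 95556403), and this pair of neighbours held the lowest and the second highest level of the set. Of 5 osteoclast markers, Calcr was listed at 0, Ocstamp had a value of 1 and Dcstamp of 35. The other 2, Atp6v0d2 at 1447 and Nfatc1 at 1617, are also expressed in other cells. Which cells expressed any of the 5 was not tested. Ctsl has a tandem cluster of placental relatives on chromosome 13, and of 10 such genes only the pseudogene Cts8-ps reached 10, with a value of 110. The highest of the others was Cts8 with a value of 8, and 4 were listed at 0.

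Of the serine proteases, Ctsa was the higher. Ctsa, the protective protein that holds neuraminidase and beta-galactosidase in a complex and is a carboxypeptidase itself, had a value of 31443 and a level of 242. Tpp1, which removes tripeptides from the amino end and is mutated in a childhood neuronal ceroid lipofuscinosis, had a value of 6375 and a level of 44.8. Exons of the lipid transfer gene Pltp (value 5529) on the opposite strand overlap 10.5% of the Ctsa exons, and since the strand setting of the counts is not given, reads there could belong to either gene.

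Glycosidases, which remove sugars one at a time, were all detected, and their levels ran from 5.56 to 337. Hexa, the alpha subunit of beta-hexosaminidase, was highest with a value of 18530 and a level of 337. It was followed by Gusb (beta-glucuronidase, value 11957, level 95.4), Man2b1 (lysosomal alpha-mannosidase, value 20262, level 91.6), Fuca1 (alpha-fucosidase, value 8032, level 88.9) and Gaa (acid alpha-glucosidase, which degrades glycogen, value 4895, level 37.1). These 5 were in the highest 10% of genes, and Gaa was closer to the next gene below it than to Fuca1. The other 7 ran from 26.7 for Naglu (value 1954) down to 5.56 for Manba (value 1068).

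Of these 7, Gla (alpha-galactosidase A) had a value of 1402 and a level of 15.6, Neu1 (neuraminidase) a value of 1429 and a level of 13.9, and Glb1 (beta-galactosidase) a value of 1067 and a level of 12.9. Idua (alpha-iduronidase) had a value of 1205 and a level of 10.4. Galc, the galactosylceramidase that degrades a main lipid of myelin, had a value of 3359 and a level of 8.19, but its annotated exons add up to 14879 bases, and over the RefSeq-linked length of 3832 bases the level was 31.8. Galc was thus among the lowest genes of the set on the first length and near the middle on the second. Over the RefSeq-linked length, Gusb (161), Man2b1 (192) and Neu1 (20.95) were also over 1.5 times higher, as was Manba (10.5), which was then the lowest of its class as before.

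Sulfatases had the lowest median level of the 8 classes, 7.03, and were uneven. Arsb (arylsulfatase B, for dermatan and chondroitin sulfate) had a value of 10639 and a level of 63.9, and Galns, which acts on keratan sulfate and chondroitin 6-sulfate, had a value of 4192 and a level of 57.4. Sgsh (N-sulfoglucosamine sulfohydrolase) followed at a value of 856 and a level of 7.03, Arsa (arylsulfatase A, for sulfatide) at 660 and 6.51, and Ids (iduronate 2-sulfatase) at 610 and 4.34. No sulfatase lay between 7.03 and 57.4. All sulfatases need a formylglycine in the active site, which Sumf1 makes. Sumf1 had a value of 2011 and a level of 21.4, and its relative Sumf2 a level of 9.11. Sgsh and Arsa exons overlap opposite-strand genes over 21.6% and 18.8% of their length, by Card14 (value 222) and C230037L18Rik (value 76).

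Lipid hydrolases lay closer together than any other class with 3 or more genes. Asah1 (acid ceramidase) had a value of 6506 and a level of 69.6, Ppt1 (palmitoyl-protein thioesterase) 5003 and 49.4, and Lipa (acid lipase, which splits cholesteryl esters and triglycerides) 7342 and 39.3. Smpd1 (acid sphingomyelinase) had a value of 2233 and a level of 24.3, and Pla2g15 (lysosomal phospholipase A2) a value of 1645 and a level of 19.8. Over the RefSeq-linked length Lipa was at 89.7 and Ppt1 at 76.2, which placed Lipa first and Asah1 (85.1) second, so the order of the upper 3 depended on the length.

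The acid phosphatases and the nuclease were low in the set. Acp2 had a value of 2789 and a level of 19.5, and Dnase2a, which degrades DNA of engulfed cells, a value of 1895 and a level of 12.8 (40.1 over the RefSeq-linked length). Exons of Mast1 (value 50) on the opposite strand overlap 29.99% of the Dnase2a exons. Acp5, the tartrate-resistant phosphatase of osteoclasts and macrophages, had a value of 203 and a level of 3.63, the lowest of the detected 41 and just under the median detected gene. The Acp2 level was 5.38 times that of Acp5.

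The activator proteins were led by prosaposin. Psap, whose product is cut into 4 saposins that lift sphingolipids towards their hydrolases, had a value of 76675 and a level of 1014, below Ctsd and Ctss and just above Ctsb (987). Over the RefSeq-linked length this last order turned, with Ctsb at 1259 and Psap at 1047. Npc2, which hands cholesterol to the membrane protein NPC1, had a value of 8609 and a level of 57.4 (94.7 over the RefSeq-linked length), 4.64 times that of Npc1 (12.4). Gm2a, the activator that presents ganglioside GM2 to hexosaminidase A, had a value of 3543 and a level of 31.1.

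Genes whose products act together were mostly far from equal in level. Psap was 124 times as high as Galc (32.9 times over the RefSeq-linked length), 156 times as high as Arsa and 14.6 times as high as Asah1, each of which depends on a saposin. The opposite held for the other activator, since Hexa was 10.8 times as high as Gm2a. In the complex of cathepsin A, neuraminidase and beta-galactosidase, Ctsa was 17.4 times as high as Neu1 and 18.8 times as high as Glb1, while Neu1 and Glb1 differed by 1.08 times. With 1 library, neighbours this close in the order cannot be separated.

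Ordered by substrate, the genes of each glycan route differed by over 20 times from highest to lowest. For heparan sulfate, the 5 genes had a median level of 10.4, with Gusb highest and Ids lowest, 21.99 times apart (36.3 times over the RefSeq-linked length). Dermatan and chondroitin sulfate share Ids, Idua and Gusb with that route and add Arsb and Hexa, which gave a median of 63.9 and a span of 77.6 times. The 3 keratan sulfate genes had a median of 57.4 and a span of 26.2 times, from Glb1 to Hexa. The 7 genes for glycans of glycoproteins had a median of 88.9 and a span of 60.6 times (31.9 over the RefSeq-linked length), from Manba to Hexa. The 10 glycosphingolipid genes had a median of 19.9 (31.5 over the RefSeq-linked length) and a span of 156 times, from Arsa to Psap. The 4 genes for neutral lipids and phospholipids lay within 2.90 times of each other, from Pla2g15 to Npc2, with a median of 44.3 (83.0, and a span of 4.29 times, over the RefSeq-linked length). Genes placed in several routes are counted in each, so these medians are not independent of one another.

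**Figure D3:**
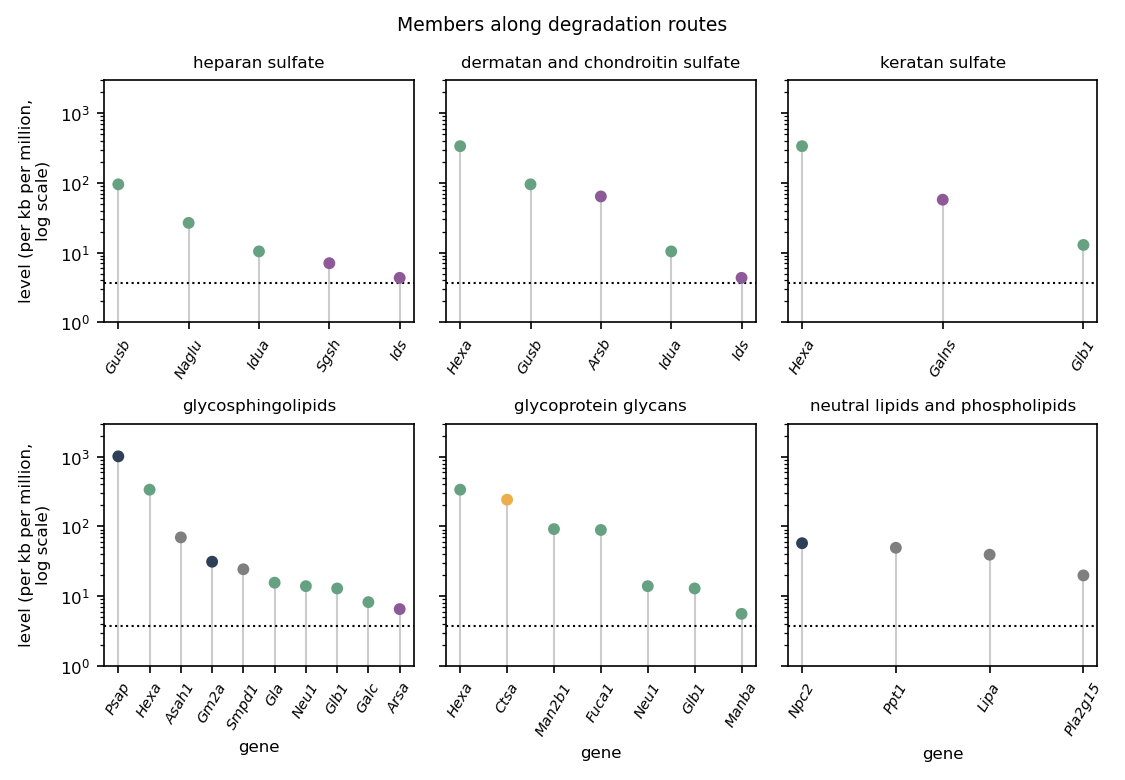
Each panel is a degradation route and each point a gene of the set, with its level per kb of annotated exon per 1000000 of the sum on a log y axis, sorted from high to low and coloured by class as in the plot of all 43 genes. The dotted line is the median of detected genes (3.72), and within the glycan and sphingolipid routes the levels fall steeply, from 337 for Hexa to 4.34 for Ids in the dermatan and chondroitin route.

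Promoters were examined because the transcription factor TFEB and its relatives are known to drive many lysosomal genes through an E-box with fixed flanks. The letters searched were CACGTG, a palindrome, and its longer form CACGTGAC on either strand, which contains the first, in the 300 bases from 250 before to 50 after each RefSeq gene start (GRCm38.p6). Promoters were matched for 37 of the 43 genes (42 promoters), and Asah1, Ctsb, Ctse, Ctsh, Ctsw and Galns had no entry. Per gene, CACGTG was found for 11 of the 36 that were also detected (30.6%), where 11.2% of 11017 detected protein-coding genes held it. Per promoter, it was in 11 of the 42 (26.2%), where 7.15% of all 32851 promoters held it. CACGTGAC was found for 8 of the 36 genes (22.2%) against 4.45% of the same detected genes, and in 8 of the 42 promoters (19.0%) against 2.25% of all promoters. A match is a description of these letters and not of binding.

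The windows around each CACGTGAC match are shown so that the bases around the match can be compared between the 8 genes. They are written 5′ to 3′ on the strand of the gene, with the match in capitals.
Arsa, chr15:89477423-89477452, minus strand: tcaactcagtGTCACGTGttgtctgctcct
Ctsa, chr2:164833749-164833778, plus strand: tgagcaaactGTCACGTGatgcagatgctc
Ctsa, chr2:164833766-164833795, plus strand: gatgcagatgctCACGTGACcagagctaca
Ctsd, chr7:142387908-142387937, minus strand: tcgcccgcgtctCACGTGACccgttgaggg
Ctsd, chr7:142388055-142388077, minus strand: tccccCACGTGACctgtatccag
Gla, chrX:134601182-134601211, minus strand: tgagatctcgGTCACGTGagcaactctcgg
Glb1, chr9:114401018-114401047, plus strand: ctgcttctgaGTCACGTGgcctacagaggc
Lgmn, chr12:102439124-102439153, minus strand: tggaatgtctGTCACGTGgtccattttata
Naglu, chr11:101070009-101070038, plus strand: caaccttcagGTCACGTGgcccgaggtcgg
Sgsh, chr11:119355522-119355551, minus strand: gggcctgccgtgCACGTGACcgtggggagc

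Ctsa and Ctsd carried 2 matches each. Distances are from the start that the RefSeq table uses for that promoter. This start can lie inside the gene as GENCODE annotates it, as it does, among others, for Ctsa, Ctsd, Gla, Lgmn, Naglu and Sgsh. In Ctsd the CACGTG began 98 and 245 bases before that start. In Ctsa, 1 began 12 bases before and 1 began 5 bases after it. The others began 16 (Arsa), 29 (Sgsh), 48 (Glb1), 49 (Lgmn), 73 (Naglu) and 194 (Gla) bases before the start. The other promoter of Lgmn, and the other of Ctsa, held no CACGTG. Gla held a second CACGTG without the longer form, 227 bases before the start, and Ctsf, Ctsl and Gaa held only the shorter form. The 11 genes with CACGTG did not form a level group of their own. Their levels ran from 6.51 (Arsa) to 4636 (Ctsd) with a median of 26.7, and those of the 26 genes without it from 0.0720 (Ctsk) to 1957 (Ctss) with a median of 30.9.

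Lists of other lysosomal genes gave the setting. The 29 other soluble hydrolases were all detected with a median level of 20.8, and 13 were in the highest 10%. The highest was the lysozyme gene Lyz2 of myeloid cells, at a level of 13732. Pld3, an exonuclease of the lysosome, was at 200.1, and the lowest was Plbd1 at 0.455. The 16 lysosomal membrane genes were all detected with a median of 11.4, led by Cd68 at 795, Lamp1 at 484 and Laptm4a at 271, with the amino acid sensor Slc38a9 lowest at 0.719. For tagging and sorting, 11 of 11 genes were detected with a median of 16.9. The small mannose 6-phosphate receptor M6pr was highest at 46.7, Scarb2 (which carries glucocerebrosidase) was at 45.05 and the adaptor Ap1m1 at 30.02, and Gga3 was lowest at 4.83. M6pr was 4.59 times as high as Igf2r, the large receptor, at 10.2 (7.26 times over the RefSeq-linked length). The 12 regulators of lysosomal gene expression had a median of 7.05, with Rragc at 43.2, Lamtor1 at 28.9 and Rraga at 27.8. Of the MiT transcription factors Tfe3 was at 9.95, Tfeb at 7.42, Mitf at 4.004 and Tfec at 0.622, the lowest of its list.

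Protease inhibitors ranged from among the highest genes to listed at 0. Cystatin C (Cst3), a secreted inhibitor, had a value of 40346 and a level of 1156, 1.17 times that of Ctsb. Cstb, the cytosolic inhibitor, was at 291 and Serpina3n at 59.5. Cst7, cystatin F of immune cells, had a value of 280 and a level of 10.3. Of the 13 inhibitor genes 8 were detected, the lowest being Cst6 at 0.293, and Csta1, Stfa2, Stfa3 and Spink5 were listed at 0.

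**Figure D4:**
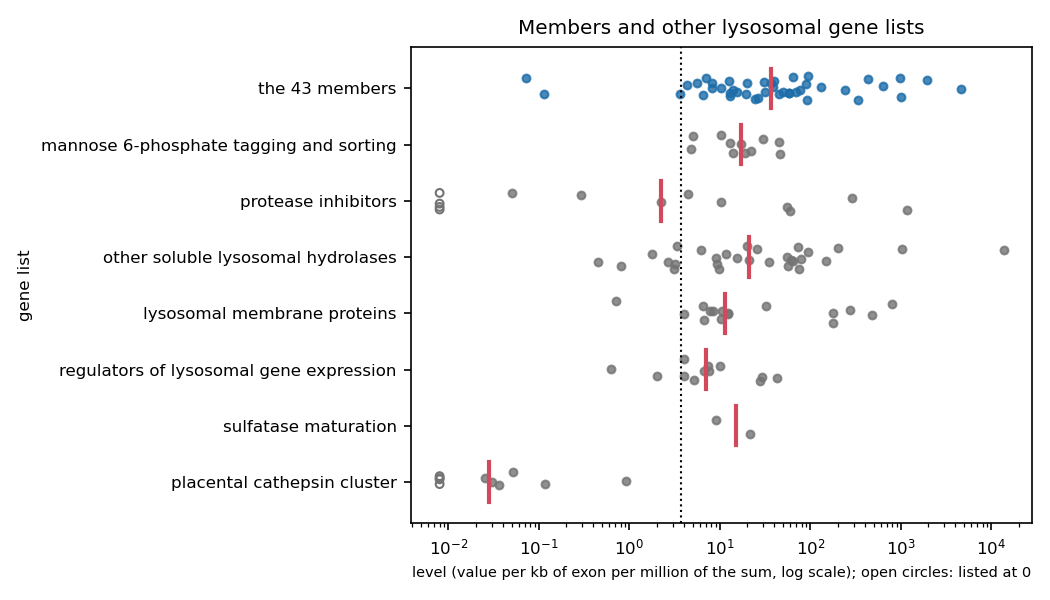
Each point is a gene and each line of points a list, the 43 hydrolase genes (blue) above 7 other lists (grey), with the level per kb of annotated exon per 1000000 of the sum on a log x axis and open circles at the left edge for genes listed at 0. Red bars mark list medians, which run from 37.1 for the 43 genes to 0.0280 for the placental cathepsin cluster, and the dotted line is the median of detected genes (3.72).

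On the chromosomes the 43 genes were spread over 17 chromosomes, and 4 pairs lay within 250 kb of each other. Besides Ctsk and Ctss these were Gaa and Sgsh on chromosome 11 (57970 bases apart, levels 37.1 and 7.03), Dnase2a and Man2b1 on chromosome 8 (160354 bases apart, levels 12.8 and 91.6) and Smpd1 and Tpp1 on chromosome 7 (186421 bases apart, levels 24.3 and 44.8). Exons of 17 of the 43 overlap another annotated gene, for 12 of them a gene with a row of its own, and for 7 of them over more than 10% of their exons (Acp2, Arsa, Ctsa, Ctsb, Dnase2a, Hexa and Sgsh). Without these 7 the set held 2.42% of the sum instead of 3.22%. The same counts were not made for other genes, so neither the neighbour pairs nor the overlaps can be called particular to the set. Ctsb shares 12.8% of its exon length with Fdft1 (value 3741) on the opposite strand, and Hexa shares 12.8% with Tmem202 (value 6). Transcripts of other loci that align at 90% identity or more over at least 20% of a member's transcript were found for Ctsh, with Gm5398, and for the overlapping pairs of Ctsd and Arsb.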

How the data were processed

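RNA from 1 culture was extracted with Trizol and made into a library with a SMARTER mRNA-Seq kit. The deposited values are normalised read counts per gene, which the authors gave as whole numbers, and they were treated here as a score because their normalisation is unstated. Per the paper's methods, reads were trimmed at quality 20, mapped to GRCm38/mm10 with STAR and counted on exons of RefSeq release 105 genes with HTSeq-count. The submitters' processing notes instead name TopHat and edgeR. The normalisation, the strand setting and the treatment of multi-mapped reads are not given in the sources used here, and a gene-specific normalisation would change the order of levels. The number of reads is unknown, so no interval or floor is given.

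Symbols were matched to GENCODE M21 (GRCm38) directly or through RefSeq synonyms, for 22932 rows (98.5%). The level is the value per 1000000 of the sum and per kb of the union of annotated exons. Alternatives were other detection minima (1, 3, 100), other sums, the longest annotated transcript, values without length, and other backgrounds. The longest transcript linked to a RefSeq mRNA and the set without overlapped genes were added after the data were seen. Exon overlaps used bedtools 2.31.1, transcript similarity BLAST 2.17.0, and other steps Python 3.11.15 with pandas 2.3.3, numpy 2.4.6 and matplotlib 3.10.9. The ranking step was checked on simulated data. With 1 library no test was run. The genes of the set and of the other lists were chosen with earlier results of these data known. Every member is given, and for other lists the 3 highest, the lowest and those at 0, unless the text needs a gene for a pair or a family. Some genes of these lists are not reported here. Amino acid sequences were not analysed here.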

Additional observations from a re-analysis of the deposited data

How the results depend on the processing

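Of 42 values recomputed under another setting, 7 differed by over 1.5 times from those in the report, which were the share without the 10 highest genes, the class medians of cysteine proteases, lipid hydrolases and activators, the route medians of glycosphingolipids and neutral lipids, and the count of placental cathepsins. The share of the sum was 3.30% without the ribosomal RNA precursor Rn45s in the sum, 1.77% when the 10 highest genes, which include Ctsd and Ctsb, were left out, and 2.42% without the 7 overlapped genes. The median level of the 43 genes was 38.0 without Rn45s, 55.2 over the longest annotated transcript and 55.2 over the RefSeq-linked transcript. On this last length the median of detected genes was 5.81, over the 14458 genes that have such a length. The median of the 43 was then 9.50 times as high, against 9.99 times per kb of annotated exon over 15498 genes. The number of the 43 in the highest 10% ran from 22 to 26, and the number detected from 41 to 43. Over the longest transcript every class median was higher. It was 125 for cysteine, 2591 for aspartic and 188 for serine proteases, 27.6 for glycosidases, 7.13 for sulfatases, 68.4 for lipid hydrolases, 16.9 for the phosphatases and nuclease and 94.7 for activators. The other lists moved likewise, to 20.8 for tagging and sorting, 2.67 for inhibitors, 28.2 for other hydrolases, 8.46 for regulators, 16.7 for membrane proteins, 19.4 for sulfatase maturation and 0.0318 for placental cathepsins. Over the RefSeq-linked transcript the route medians were 12.4 for heparan sulfate, 95.6 for dermatan and chondroitin sulfate, 59.5 for keratan sulfate, 31.5 for glycosphingolipids, 115 for glycoprotein glycans and 83.0 for neutral lipids and phospholipids. The class medians on this length are not among the 42 values. They were 212 for cysteine, 2591 for aspartic and 189 for serine proteases, 29.7 for glycosidases and 7.13 for sulfatases. For lipid hydrolases the median was 76.2, for the phosphatases and nuclease 21.7 and for activators 94.7. A single transcript cannot exceed the union of exons, so these shifts follow from the shorter length. At a minimum of 1, 6 of the 10 placental cathepsins were counted instead of 1. No paired analysis was possible because the data are 1 library.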
